A study of Mus musculus with 18 samples.

Results

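The nuclei described here are those of the blood vessels and their sheath in the mouse forebrain at embryonic day 14 (E14): endothelial cells, the mural cells that wrap them, and fibroblasts. They were chosen by their own RNA. A nucleus was a member if at least 3 of 9 genes (Flt1, Kdr, Cldn5, Pecam1, Rgs5, Pdgfrb, Col4a1, Col3a1 and Col1a1) were detected with a count of at least 1 and none of 4 neuron genes (Neurod2, Neurod6, Dlx6os1 and Gad2) was detected. Of 201952 nuclei with 800 to 6000 UMIs, 300 to 3000 genes and at most 1% mitochondrial UMIs, 285 were members. Another 90 inside these limits held at least 3 of the 9 genes but also a neuron gene, and were left out. A UMI is a molecular barcode that counts 1 captured RNA molecule. Of the 285 nuclei, 117 held exactly 3 of the 9 genes, 109 held 4 and 59 held 5 or more.

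Vessels grow into the embryonic brain from a plexus on its surface. Endothelial cells line the lumen and, in the brain, form the blood-brain barrier under Wnt signals from neural progenitors. They release PDGF-B, which recruits mural cells (pericytes and smooth muscle cells) bearing the receptor PDGFRB, and both cell types lay down a shared basement membrane of type IV collagen and laminins. Fibroblasts lie in the meninges and along larger vessels and secrete fibrillar collagen.

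The study asked how loss of MYT1L, a zinc finger transcription factor of neurons, alters the developing forebrain. Its mice carry the frameshift allele MYT1L S710fsX, and the groups were wild type (WT), heterozygous (Het) and homozygous (KO) embryos, all at E14, from matings of Het parents on a C57BL/6J background. The allele is present in every cell, so a difference in a vascular nucleus need not arise in that nucleus. Each genotype had 3 animals, each measured in 2 runs of single-nucleus RNA sequencing by combinatorial barcoding, in which fixed nuclei collect barcodes over rounds of pooling and splitting. The 9 libraries of run 1 also carry a genotype tag of WT throughout, against their titles, and the titles were followed. A frameshift need not lower the RNA of its gene, so the level of Myt1l was not used to test the labels. In the nuclei that were not members, Myt1l stood at 1235, 1260 and 1252 CPM in the 3 WT animals, 1266, 1381 and 1431 CPM in Het and 1591, 1459 and 1476 CPM in KO, so it was not lower in KO. The study's methods state that the meninges were taken off the tissue before freezing.

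The members held 840355 UMIs, 54908 to 190941 per animal, with a median of 2697 UMIs and 1780 genes per nucleus, against a median of 2561 UMIs in the 201667 other nuclei. No barcode was shared by vascular nuclei of different libraries, and 6 vascular nuclei had a barcode that also occurred in another library. Levels below are in CPM, the UMIs of a gene scaled to a fixed total of all UMIs of the named nuclei. The animal is the replicate, and its runs were summed.

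Clustering of the 285 nuclei gave 5 clusters, 4 of which took a name from marker lists. Endothelial-like nuclei numbered 52, mural-like nuclei 175 in clusters of 75 and 100, and fibroblast-like nuclei 36. The remaining 22 nuclei stayed unnamed, since no class had more markers than every other list among their leading genes. What follows on levels is a description: the 9 genes chose the nuclei, and the other genes made the clusters.

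The 9 genes were spread unevenly over the classes. Flt1 and Kdr, the VEGF receptors, were detected in 51 and 48 of the 52 endothelial-like nuclei, Pecam1, an adhesion molecule, in 43, and Cldn5, the tight junction protein of brain endothelium, in 27. Pdgfrb was detected in 168 and Rgs5, a regulator of G protein signalling in pericytes, in 166 of the 175 mural-like nuclei, where Cldn5 was found in 0. Rgs5 was also found in 21 of the 52 endothelial-like nuclei. Col3a1, a fibrillar collagen, was detected in all 36 fibroblast-like nuclei and in 68 mural-like nuclei, and Col1a1 in 31 fibroblast-like and 5 mural-like nuclei. Col4a1, of the basement membrane, was found in 51 endothelial-like, 172 mural-like and 34 fibroblast-like nuclei. In 17021 nuclei with both Neurod2 and Neurod6 detected and neither Gad2 nor Dlx6os1 (excitatory neurons, median 3310 UMIs), Flt1 was detected in 0.488%, Pdgfrb in 0.317% and Cldn5 in 0.0353%.

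The classes were clustered and named on genes that include the listed markers, so their marker levels are a description of the classes and no test of them. The 14 endothelial markers outside the rule summed to 11646 CPM in endothelial-like nuclei, 895 CPM in mural-like and 116 CPM in fibroblast-like nuclei, against 32.1 CPM in the other nuclei. The 13 mural markers outside the rule summed to 12854 CPM in mural-like, 2610 CPM in endothelial-like and 883 CPM in fibroblast-like nuclei. They summed to 611 CPM in the other nuclei and 1151 CPM in nuclei with Dlx6os1 and Gad2 (inhibitory neurons). Ebf1, whose levels are given below, made a large part of the mural-like and endothelial-like sums. The 13 fibroblast markers outside it summed to 3120 CPM in fibroblast-like nuclei and at most 472 CPM in the other named classes. At the threshold, the 117 nuclei with exactly 3 genes had mural markers of 7323 CPM and radial glia markers of 1026 CPM, whereas 244 nuclei with 2 of the 9 genes had 746 and 3401 CPM.

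Most marker lists of other cells were low in the named classes, with exceptions. Radial glia markers summed to 2356 CPM in fibroblast-like nuclei, above the 1271 CPM of the other nuclei, of which Slc1a3 alone made 2299 CPM. Oligodendrocyte progenitor markers summed to 729 CPM in mural-like and 298 CPM in fibroblast-like nuclei, against 10.2 CPM in the other nuclei, through Cspg4 (728 CPM, also a mural marker) and Pdgfra (277 CPM), while Olig2 and Sox10 were at 0. Microglia and macrophage markers reached at most 71.4 CPM (in endothelial-like nuclei), with 5 of 14 listed at 0 over all vascular nuclei, erythroid markers at most 170 CPM (in endothelial-like nuclei, against 11.2 CPM in the other nuclei), and the choroid plexus gene Ttr was at 0. The 8 pan-neuronal markers summed to 351, 396 and 410 CPM in endothelial-like, mural-like and fibroblast-like nuclei, against 7348 CPM in the other nuclei. The unnamed nuclei differed here. They held 3130 CPM of pan-neuronal and 1470 CPM of radial glia markers, a median of 4016.5 UMIs, and leading genes of several classes: the mural Abcc9, the endothelial Flt1 and Kdr, and Rspo2 and Lmx1a, genes of the dorsal midline of the forebrain. Whether they are mixtures of nuclei was not tested.

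**Figure D1:**
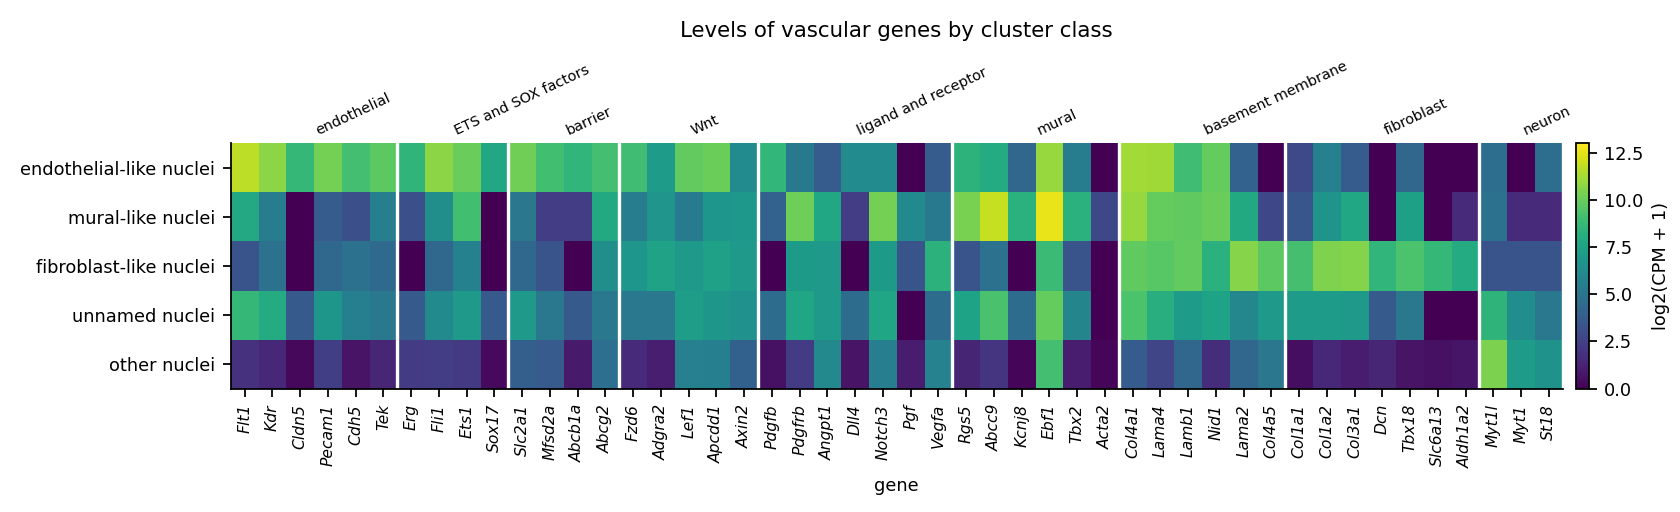
Level of selected vascular and neuronal genes, as the log2 of CPM plus 1, in the 4 classes of vascular nuclei and in all other nuclei. Rows are classes and columns are genes grouped by role. Endothelial genes are bright in the top row (Flt1 at 3330.5 CPM), Abcc9 and Ebf1 in mural-like nuclei (3733 and 6082 CPM), Col1a2 and Col3a1 in fibroblast-like nuclei (1441 and 1517 CPM), and Myt1l in the other nuclei (1368 CPM).

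The genes with the highest ratio of vascular over other nuclei were mostly mural, and 175 of the 285 members were mural-like. Abcc9, the sulfonylurea receptor subunit of a potassium channel, led with 2299 CPM against 3.03 CPM, a ratio of 570 after adding 1 CPM to both. Rgs5 (865 CPM), Ednra, the endothelin receptor (896 CPM), Nid1, a basement membrane linker (861 CPM), and Igfbp7 (713 CPM) followed. Abcc9 varied little among animals within mural-like nuclei. With the animals in the order 1, 2 and 3, which is kept below, it stood at 3570, 3571 and 3397 CPM in WT, 3264, 3968 and 4422 CPM in Het and 3221, 3764 and 3914 CPM in KO. Over all vascular nuclei the same gene ranged from 1131 CPM in KO 1 up to 3622 CPM in Het 3.

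All 17 endothelial transcription factors listed were at least 1.5 times higher in vascular than in other nuclei, beside 3675 of 11324 genes with at least 10 CPM in either. Lyl1, Gata2 and Sox18 lay under that floor, with 3, 6 and 7 UMIs in all vascular nuclei. Ets1, Fli1, Elk3 and Erg are ETS factors, which bind a GGAA core in promoters and enhancers of endothelial genes. Fli1 stood at 1712 CPM in endothelial-like, 84.1 CPM in mural-like and 19.1 CPM in fibroblast-like nuclei. Ets1 was less restricted, with 1039 CPM in endothelial-like and 536 CPM in mural-like nuclei. Mecom, a zinc finger factor, reached 2385 CPM in endothelial-like and 16.6 CPM in mural-like nuclei. Epas1, the hypoxia-inducible factor HIF-2 alpha, was shared by both (523 and 377 CPM). Foxo1 was the listed factor that was highest in fibroblast-like nuclei, at 296 CPM against 239 CPM in endothelial-like nuclei.

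Because ETS factors were among these, the 250 bases before the RefSeq start of 3 endothelial genes and of the mural gene Rgs5 are shown. The sequence is that of GRCm38.p6 (mm10) on the strand of the gene. In GENCODE vM21 Tie1 starts at base 118490061, so most of its window, with the marked match, lies inside the gene there. Capitals mark each match to GGAAGT, an ETS site, or to its reverse complement ACTTCC.
Flt1, chr5:147726012-147726261, minus strand: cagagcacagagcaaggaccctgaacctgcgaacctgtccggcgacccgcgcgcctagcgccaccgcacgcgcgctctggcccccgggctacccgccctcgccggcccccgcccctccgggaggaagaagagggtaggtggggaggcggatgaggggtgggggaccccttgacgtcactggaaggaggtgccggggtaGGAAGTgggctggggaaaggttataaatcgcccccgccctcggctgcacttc
Kdr, chr5:75978456-75978705, minus strand: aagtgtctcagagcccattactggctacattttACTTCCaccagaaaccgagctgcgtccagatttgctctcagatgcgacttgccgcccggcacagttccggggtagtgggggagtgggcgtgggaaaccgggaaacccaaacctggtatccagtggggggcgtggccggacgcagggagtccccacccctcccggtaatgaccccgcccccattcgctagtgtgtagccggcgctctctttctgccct
Tie1, chr4:118489850-118490099, minus strand: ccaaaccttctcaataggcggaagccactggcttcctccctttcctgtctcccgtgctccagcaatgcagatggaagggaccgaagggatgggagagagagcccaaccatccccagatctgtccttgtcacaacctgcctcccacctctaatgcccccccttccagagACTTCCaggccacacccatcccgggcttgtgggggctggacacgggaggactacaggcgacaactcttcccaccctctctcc
Rgs5, chr1:169655251-169655500, plus strand: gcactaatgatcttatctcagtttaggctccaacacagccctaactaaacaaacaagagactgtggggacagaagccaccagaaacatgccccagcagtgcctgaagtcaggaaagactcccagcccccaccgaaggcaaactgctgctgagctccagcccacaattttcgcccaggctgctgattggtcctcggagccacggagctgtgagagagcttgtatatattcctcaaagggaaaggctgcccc

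Searched on both strands, GGAAGT occurred in 19.7% of 32851 promoter windows of this length. Of the 18 endothelial markers, 14 had a window, and 7 of their 20 windows (35.0%) held the motif, in Adgrf5, Egfl7, Eng, Flt1, Kdr and Tie1. Among mural markers it was in 3 of 11 windows (27.3%), and among fibroblast markers in 0 of 14. These are matches of letters only, over few windows. Flt1, Kdr and Tie1, shown above, are all among the 6 endothelial markers with a match. Rgs5 has 0 matches, while 3 other mural markers hold the motif. The windows shown are thus examples and do not stand for their lists. The 3 endothelial genes shown were at 3330.5 (Flt1), 1700 (Kdr) and 447 CPM (Tie1) in endothelial-like nuclei, and at 231, 42.7 and 14.2 CPM in mural-like nuclei. In mural-like nuclei Flt1 was detected in 33.7% and Kdr in 11.4%, with Cldn5 in 0.

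The genes of the barrier list were largely endothelial. Of 18 listed, 16 were at least 1.5 times higher in vascular nuclei, and 15 had their highest level in endothelial-like nuclei. The list also holds genes of caveolae and their diaphragms, which are not barrier genes. Slc2a1, the glucose transporter, stood at 1152 CPM in endothelial-like and 34.6 CPM in mural-like nuclei. Slc7a5, an amino acid transporter, stood at 737 and 63.0 CPM, and Tfrc, the transferrin receptor, at 724 and 117 CPM. Abcg2, an efflux pump, was also present in mural-like nuclei, at 562 CPM in endothelial-like and 238 CPM in mural-like nuclei. Slco1a4, an anion transporter of the mature barrier, had 0 UMIs in the 52 endothelial-like nuclei.

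Of the 19 genes of the Wnt list, 12 were at least 1.5 times higher in vascular nuclei. Endothelial-like nuclei had the highest level of 10, fibroblast-like of 4, and mural-like and unnamed nuclei of 2 each, and the target Notum was at 0. Apcdd1, a target and inhibitor, stood at 1089 CPM in endothelial-like and 47.6 CPM in other nuclei, and Lef1, a transcription factor of the pathway, at 923 and 49.9 CPM. Fzd6, a receptor, was at 523 and 2.05 CPM. Adgra2, the co-receptor for Wnt7 known as GPR124, was spread over the classes, at 139, 110 and 181 CPM in endothelial-like, mural-like and fibroblast-like nuclei, against 1.16 CPM in other nuclei. The ligands Wnt7a and Wnt7b were both at 0 in endothelial-like nuclei and at 37.7 and 48.6 CPM in other nuclei.

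Ligands and receptors of the vessel wall were divided between the classes. For VEGF, the receptor Flt4 stood at 239 CPM in endothelial-like nuclei and 0 in mural-like ones, while Vegfa stood at 324 CPM in fibroblast-like, 36.6 CPM in mural-like and 12.6 CPM in endothelial-like nuclei. The related ligand Pgf was found in mural-like nuclei (71.2 CPM) and at 0 in endothelial-like ones. The receptor Tek (TIE2) was at 850 CPM in endothelial-like and 47.5 CPM in mural-like nuclei, and its ligand Angpt1 ran the other way, with 12.6 and 217 CPM. For PDGF, the ligand Pdgfb was at 390 CPM in endothelial-like and 16.3 CPM in mural-like nuclei, and the receptor Pdgfrb at 37.8 and 1137 CPM. In the Notch list, Notch1 and Notch4 were highest in endothelial-like nuclei (472 and 271 CPM), while Notch3 (1235 CPM) and its target Heyl (226 CPM) were highest in mural-like nuclei. Endoglin (Eng), a TGF-beta co-receptor, was at 718 CPM in endothelial-like and 190 CPM in mural-like nuclei.

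Mural-like nuclei carried Ebf1, an early B cell factor, at 6082 CPM, but this gene does not mark them alone: it stood at 2053 CPM in endothelial-like nuclei and at 1134 CPM in 39146 inhibitory neurons with Dlx6os1 and Gad2. Tbx2, a T-box factor, was at 313 CPM in mural-like and 9.54 CPM in fibroblast-like nuclei, while Tbx18 was at 169 and 639 CPM. The contractile genes of smooth muscle, Acta2, Tagln and Myh11, were at 6.10, 2.03 and 4.07 CPM in mural-like nuclei and at 0 in the other named classes. The mural-like nuclei thus held 3, 1 and 2 UMIs of these smooth muscle genes.

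The matrix genes marked the layers. Of 20 basement membrane genes 17 were at least 1.5 times higher in vascular nuclei, and 8 had their highest level in endothelial-like, 4 in mural-like and 7 in fibroblast-like nuclei. Col4a1 stood at 2330 CPM in endothelial-like and 2024 CPM in mural-like nuclei, Col4a2 at 1751 and 1420 CPM, and the laminin chain Lama4 at 2235 and 962 CPM. Nid1 was nearly even between them (989 and 1051 CPM). In fibroblast-like nuclei the chains differed, and 3 genes singled out after their values were seen show it: Lama2 at 1566 CPM, against 15.7 CPM in endothelial-like and 240 CPM in mural-like nuclei, Col4a5 at 860 CPM and Col4a6 at 382 CPM, against 0 for both in endothelial-like nuclei. Of 16 fibrillar and interstitial matrix genes, 13 were highest in fibroblast-like nuclei, with Col1a2 at 1441 CPM, 106 CPM in mural-like and 50.4 CPM in endothelial-like nuclei. Postn, a matrix protein, was shared with mural-like nuclei (267 and 148 CPM).

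Fibroblast-like nuclei had leading genes of their own. Ranbp3l was at 2405 CPM and at 0 in endothelial-like and mural-like nuclei. Slc6a13, a GABA transporter, was at 401 CPM and Aldh1a2, an enzyme of retinoic acid synthesis, at 258 CPM. Both are known from fibroblasts of the meninges. The glutamate transporter Slc1a3, listed as a radial glia marker, was also high in them (2299 CPM), while the other 7 radial glia markers were at most 38.2 CPM there.

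Myt1l itself was low in vascular nuclei. It was read 49 times in all 285, of which 30 were in the unnamed nuclei. Its level was 25.2 CPM in endothelial-like, 28.5 CPM in mural-like and 9.54 CPM in fibroblast-like nuclei, against 353 CPM in the unnamed nuclei and 2175 CPM in excitatory neurons. In the named classes that was 1.84% of the level in the other nuclei. The other pan-neuronal markers there ran from 3.95% (Snap25, 7 UMIs) and 4.26% (Syt1) up to 14.9% (Tubb3) of their levels in the other nuclei. Myt1l was thus the lowest by this measure. Whether these reads came from RNA free in the preparation was not tested. Its relatives Myt1 and St18 had 2 and 6 UMIs in the named classes.

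Each class was then counted by animal. WT gave 7, 2 and 6 endothelial-like nuclei, Het gave 6, 6 and 5, and KO gave 11, 0 and 9. Mural-like nuclei numbered 22, 13 and 16 in WT, 22, 17 and 26 in Het, and 23, 18 and 18 in KO. Fibroblast-like nuclei were found in KO 1 (30) and Het 1 (6), and in 0 of the nuclei of the other 7 animals, which allows a share of up to 0.0159% in each of those animals (3 nuclei of its total, for counting error only). In KO 1 they occurred in both runs, 9 and 21 nuclei, and in Het 1 as 3 and 3. All 36 thus came from 2 animals of 2 genotypes. With at least 4 of the 9 genes required to be a member, the difference from WT in fibroblast-like nuclei was 0.0174 percentage points in KO, in place of 0.0653, and 0.00269 in Het, in place of 0.00806. Whether meninges remained on those pieces of tissue was not tested.

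The WT animals had vascular shares of 0.131, 0.0640 and 0.111% of nuclei, the Het animals 0.149, 0.137 and 0.170%, and the KO animals 0.444, 0.0757 and 0.111%. KO 1 stood apart, with a 95% Wilson interval of 0.350 to 0.563%, and the other KO animals lay within the WT range. The Het animals all lay above the 3 WT animals. Means (± SD, n = 3 animals) were 0.102% ± 0.0346 for WT, 0.152% ± 0.0166 for Het and 0.210% ± 0.203 for KO. The difference between KO and WT was 0.108 percentage points (exact permutation test, two-sided, p = 0.7, n = 3) and that between Het and WT 0.05002 points (exact permutation p = 0.1, n = 3, the smallest that 3 against 3 allows). Over all 9 animals the slope was 0.0540 points per lost allele and did not pass (exact permutation p = 0.338). In endothelial-like and mural-like nuclei alone, a setting added after the data were seen, Het 1 (0.113%) and Het 2 (0.122%) lay below WT 1 (0.123%), so Het and WT overlapped. The difference from WT was then 0.0346 points in Het (exact permutation p = 0.3, n = 3) and 0.0359 points in KO (exact permutation p = 0.7, n = 3), and the slope 0.0180 points (exact permutation p = 0.423). With at least 4 of the 9 genes required, the difference between KO and WT was 0.0603 points. With the 90 nuclei that also held a neuron gene counted, it was 0.154 points (exact permutation p = 0.5, n = 3). The difference between Het and WT was then 0.0657 points (exact permutation p = 0.1, n = 3). For all vascular nuclei without KO 1 the difference between KO and WT was -0.00889 points and the slope -0.000257 points.

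The runs differed. In run 1, vascular nuclei were 0.0613, 0 and 0.0613% of nuclei in WT, 0.176, 0.219 and 0.226% in Het, and 0.555, 0.131 and 0.234% in KO, and no Het or KO animal overlapped with WT. The slope was 0.133 points per lost allele (exact permutation p = 0.0155). The WT values of run 1 rest on 3, 0 and 2 nuclei, and 0 of 4051 allows up to 0.0741%. In run 2, with more nuclei, the shares were 0.150, 0.0756 and 0.121% in WT, 0.144, 0.115 and 0.148% in Het, and 0.410, 0.0633 and 0.0851% in KO. There the genotypes overlapped, and the slope was 0.0354 points (exact permutation p = 0.576).

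**Figure D2:**
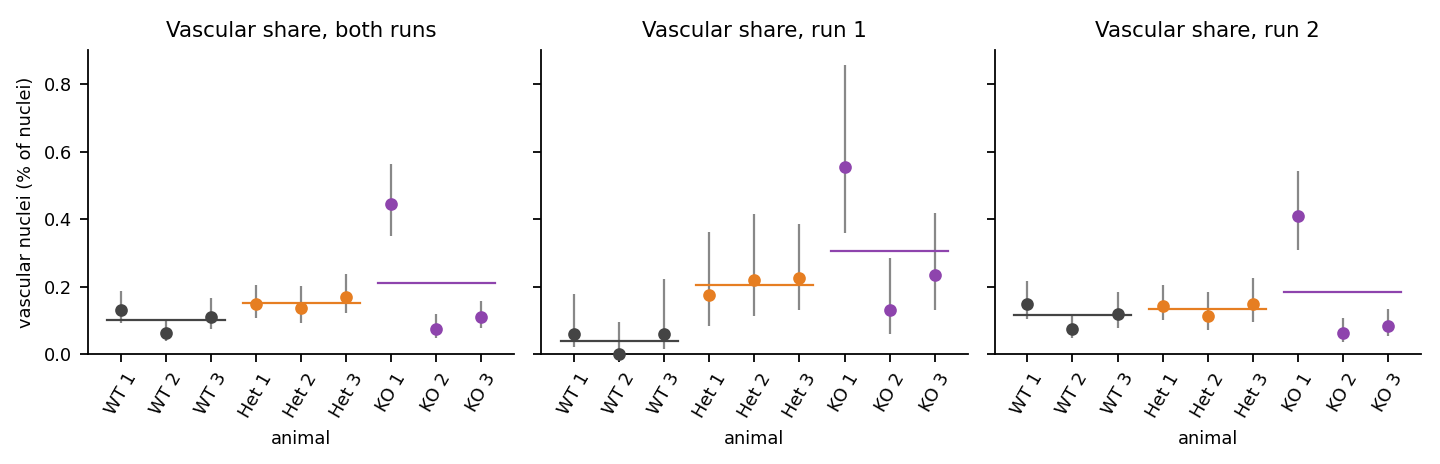
Vascular nuclei as a percentage of all nuclei inside the limits, for each animal over both runs, in run 1 and in run 2. Points are animals, vertical lines their 95% Wilson intervals and horizontal lines the means of 3 animals. KO 1 is highest in each panel (0.444, 0.555 and 0.410%), and the 3 WT animals are the lowest of run 1 (at most 0.0613%).

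No class share passed a test between genotypes. The WT mean of endothelial-like nuclei was 0.0221% ± 0.0126, that of Het 0.0270% ± 0.00413 and that of KO 0.0350% ± 0.0360 (SD, n = 3). Mural-like nuclei were 0.0732% ± 0.0225, 0.103% ± 0.0237 and 0.0962% ± 0.0469. Adjusted over the 3 classes, the exact permutation p was 0.9 or 1.0 for each difference from WT and 0.505 for each slope. Among vascular nuclei, the mural-like share was 72.3% ± 3.65 in WT, 67.1% ± 8.64 in Het and 62.9% ± 30.6 in KO.

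The upper limits on UMIs and genes did not remove the same share of each class. Without these limits the rule found 369 nuclei, 84 of them (22.8%) above a limit, beside 16.2% of all 240941 nuclei. Clustered anew, 41 of 95 endothelial-like nuclei (43.2%, 95% Wilson interval 33.7 to 53.2) lay above a limit, but 9 of 184 mural-like nuclei (4.89%, 2.59 to 9.03), 4 of 40 fibroblast-like nuclei and 17.3% of 14151 radial glia. The unnamed cluster of this clustering had 30 of 50 nuclei above a limit and a median of 7265 UMIs. Its leading genes included mural genes (Abcc9, Ednra, Nid1 and Rgs5), so the low share in mural-like nuclei depends on these nuclei staying unnamed. In this cluster 7 of 8 radial glia markers were detected, beside 14 of 18 endothelial and 9 of 15 mural markers. The naming rule left it unnamed, since radial glia had the highest fraction. Whether its nuclei are mixtures was not tested. The 41 endothelial-like nuclei had a median of 11416 UMIs, 10373 CPM of endothelial markers against 11467 CPM in those inside the limits, and 350 CPM of pan-neuronal markers against 365 CPM. They came from 8 of 9 animals: 0, 2 and 3 in WT, 7, 5 and 5 in Het, and 3, 6 and 10 in KO. KO 2, which had 0 endothelial-like nuclei inside the limits, had 6 above them. Whether the 41 are single nuclei or clumps of endothelial nuclei was not tested. With them the endothelial-like share was 0.0269, 0.0128 and 0.0374% in WT, 0.0452, 0.0425 and 0.0410% in Het, and 0.0803, 0.0199 and 0.0619% in KO, with a slope of 0.0142 points per lost allele (exact permutation p = 0.0929, not adjusted).

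**Figure D3:**
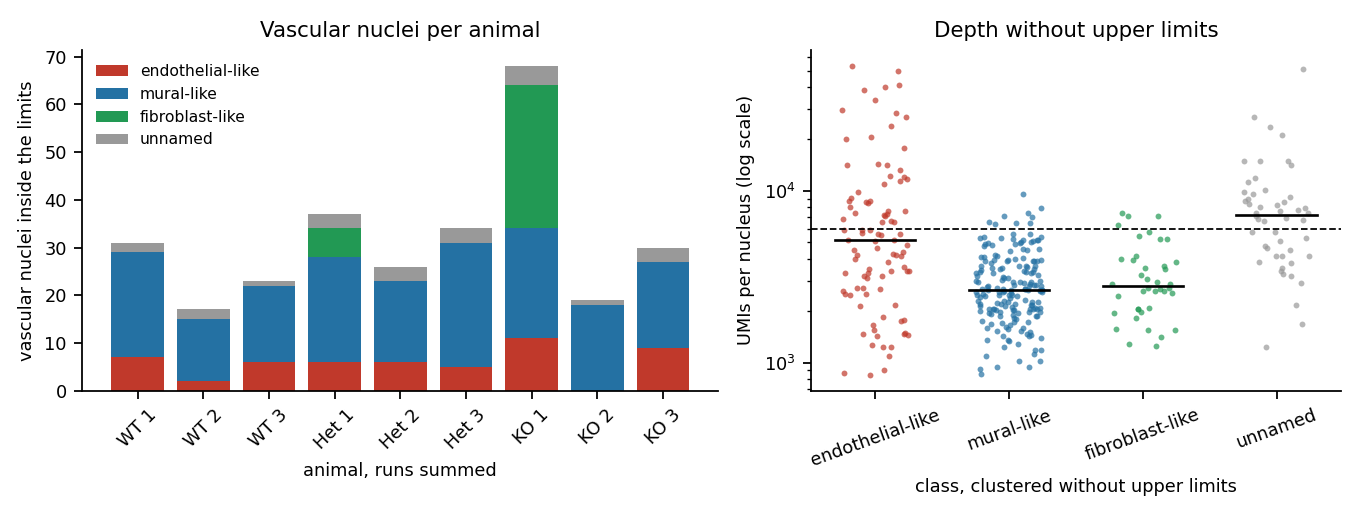
Left, vascular nuclei per animal inside the limits, stacked by class, with 30 fibroblast-like nuclei in KO 1 and 6 in Het 1. Right, UMIs per nucleus on a log axis for the 369 vascular nuclei found without upper limits, with bars at the medians and a dashed line at 6000 UMIs. Above the UMI or the gene limit were 41 of 95 endothelial-like, 9 of 184 mural-like and 30 of 50 unnamed nuclei. Mural genes led the unnamed cluster, in which 7 of 8 radial glia markers were also detected.

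Genes of cell division were found in each class. A nucleus was counted as cycling if at least 2 of 14 G2/M genes, such as Mki67 and Top2a, were detected. This held for 47.4% of the 285 vascular nuclei: 51.4% of mural-like (median 2621 UMIs), 36.5% of endothelial-like (2903.5 UMIs) and 30.6% of fibroblast-like nuclei (2695.5 UMIs). Radial glia, the dividing progenitors, were at 73.5% (3051 UMIs) and excitatory neurons, which no longer divide, at 17.6% (3310 UMIs). With each nucleus thinned to 1500 UMIs, which left out 36 vascular nuclei, the values were 48.4% of mural-like, 30.0% of endothelial-like and 18.2% of fibroblast-like nuclei, 66.4% of radial glia and 8.49% of excitatory neurons. The summed level of the 14 genes had the same order, at 3376 CPM in mural-like, 1792 CPM in endothelial-like and 1007 CPM in fibroblast-like nuclei. These classes were clustered on genes that include G2/M genes, so no test is given.

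By animal, the cycling share of vascular nuclei was 35.5, 70.6 and 52.2% in WT, 32.4, 46.2 and 52.9% in Het, and 36.8, 57.9 and 73.3% in KO. The genotypes overlapped, with means of 52.7% ± 17.6, 43.8% ± 10.4 and 56.0% ± 18.4 (SD, n = 3). The difference from WT was 3.25 points in KO (exact permutation p = 0.7, n = 3) and -8.91 points in Het (exact permutation p = 0.5, n = 3). Median UMIs per vascular nucleus ranged from 1650 in WT 1 up to 3953.5 in Het 2, and with thinning the difference between KO and WT was -10.1 points.

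Gene levels were then compared between genotypes on counts summed over the vascular nuclei of each animal. With edgeR's quasi-likelihood test, 0 of 2835 genes (0%) passed an adjusted p under 0.05 in KO against WT, and 141 (4.97%) had an unadjusted p under 0.05. In Het against WT it was 0 genes (0%) and 124 (4.37%). DESeq2, which tested 18977 genes, also called 0 in both, with 111 and 102 of these at an unadjusted p under 0.05. With no filter on low counts, however, edgeR called 66 of 18988 genes in KO, among them Lama2 and Col1a2, and 19 in Het. Of these, 62 were higher and 4 lower in KO, and 15 higher and 4 lower in Het. Of the 62 higher in KO, 60 were highest in fibroblast-like nuclei and 56 in KO 1 among all 9 animals. These shares were not counted over all 18988 genes, and what made the calls was not tested. In 1 simulation of KO against WT, with 2576 genes, 66 of 100 genes changed 4-fold and 13 of 100 changed 2-fold were recovered, with 6 false calls. Every simulated gene had the same set spread, which was not taken from these data. At that spread and depth, changes of 2-fold were mostly not detectable, and no other spread was simulated. No class had 20 nuclei in every animal, so the planned test within classes was not made. In tests added after the data were seen, mural-like nuclei alone gave 0 of 1441 genes (0%) in KO and in Het, with 4.02% and 7.01% at an unadjusted p under 0.05, and endothelial-like and mural-like nuclei together gave 0 of 1909 (0%), with 3.35% and 4.71%. Of 190 genes in the lists by role, 85 could be tested, and 6 of them (7.06%) had an unadjusted p under 0.05 in KO.

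The genes of lowest p in KO are given as values that did not pass. Tmem164, an enzyme of membrane lipids on chromosome X, stood at 178, 146 and 169 CPM in WT, 302, 322 and 233 CPM in Het and 388, 418 and 330 CPM in KO (log2 fold change in KO 1.21 ± 0.28 SE, adjusted p = 0.752, edgeR). The KO animals did not overlap with WT, and Het lay between them. Sox11, a transcription factor of neural progenitors and young neurons, stood at 356, 384 and 400 CPM in WT, 333, 231 and 308 CPM in Het and 126, 157 and 189 CPM in KO (log2 fold change -1.27 ± 0.28 SE, adjusted p = 0.752, edgeR). Its level in the other nuclei was 894 CPM, above the 189 CPM of mural-like, 172 CPM of fibroblast-like, 378 CPM of endothelial-like and 459 CPM of unnamed nuclei. In mural-like nuclei alone its log2 fold change was -0.87 (adjusted p = 0.895, edgeR). Dlst, a mitochondrial enzyme of the citric acid cycle, stood at 226, 256 and 246 CPM in WT, 167, 121 and 149 CPM in Het and 110, 105 and 94.4 CPM in KO (log2 fold change -1.19). Senp2, Ptpn11 and Hnrnpa1, the last with many near-identical pseudogenes and so uncertain in its counts, also had lower values in all 3 KO than in all 3 WT animals, with log2 fold changes of -1.63, -1.60 and -0.99.

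The other genes with higher values in KO peaked in KO 1. Dpyd, of pyrimidine breakdown, stood at 16.2, 54.8 and 0 CPM in WT and 388, 244 and 104 CPM in KO. Flrt2, an adhesion protein, stood at 48.5, 54.8 and 61.5 CPM in WT, 645, 322 and 93.4 CPM in Het and 782, 139 and 227 CPM in KO. Samd4 and Gpc3, a proteoglycan, were likewise highest in KO 1, at 346 and 556 CPM. All 4 genes were highest in fibroblast-like nuclei, at 778 (Dpyd), 1554 (Flrt2), 630 (Samd4) and 1059 CPM (Gpc3), and the animals with the highest Flrt2 were those with fibroblast-like nuclei. Without KO 1 the log2 fold change of Flrt2 in KO was 1.76 in place of 2.903 and that of Gpc3 1.25 in place of 2.08. In endothelial-like and mural-like nuclei alone, with the fibroblast-like nuclei left out, Flrt2 stood at 35.2, 44.0 and 65.8 CPM in WT and 357, 150 and 217 CPM in KO, with a log2 fold change of 2.31 ± 0.53 SE (adjusted p = 0.610, edgeR), and the log2 fold change of Gpc3 was 1.04. The adjusted p was 0.752 for Dpyd and 0.960 for Samd4, Flrt2 and Gpc3 (edgeR), and with no filter on low counts edgeR called all 4.

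**Figure D4:**
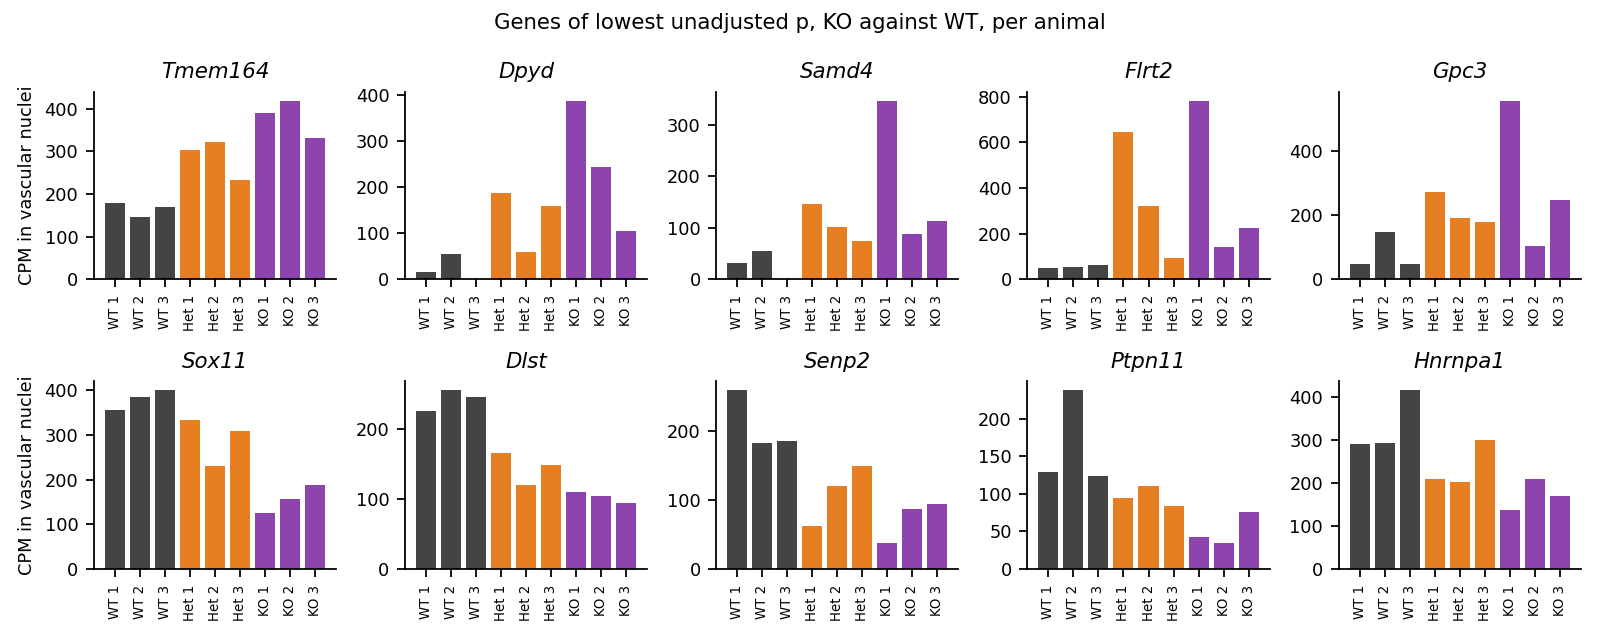
CPM over the vascular nuclei of each animal for the 10 genes of lowest unadjusted p in KO against WT, 5 higher and 5 lower, none of which passed the adjusted test. Each bar is 1 animal. Tmem164 is above all WT animals in each KO animal (330 to 418 CPM), whereas Dpyd, Samd4, Flrt2 and Gpc3 peak in KO 1.

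Among the genes by role, the 6 with an unadjusted p under 0.05 in KO were Pdgfb and Slco1c1 (lower) and Lama1, Lama2, Foxo1 and Col1a2 (higher). Pdgfb stood at 210, 146 and 108 CPM in WT, 41.6, 121 and 74.7 CPM in Het and 52.5, 34.9 and 75.5 CPM in KO, with all 3 KO below all 3 WT (log2 fold change -1.41 ± 0.50 SE, adjusted p = 0.960, edgeR). Pdgfb was highest in endothelial-like nuclei, which were 11 of 68, 0 of 19 and 9 of 30 vascular nuclei in the KO animals and 7 of 31, 2 of 17 and 6 of 23 in WT. The part of this make-up in the result was not tested. Lama2 stood at 97.1, 201 and 185 CPM in WT, 468, 121 and 196 CPM in Het and 787, 262 and 160.5 CPM in KO, and Col1a2 at 64.7, 73.1 and 123 CPM in WT, 323, 60.3 and 131 CPM in Het and 756, 87.2 and 66.1 CPM in KO. Both were highest in KO 1 and next in Het 1, the animals with fibroblast-like nuclei. Foxo1 stood at 48.5, 54.8 and 15.4 CPM in WT and 189, 0 and 170 CPM in KO, so KO 2 lay below all WT animals. Within mural-like nuclei Lama2 was at 147, 307 and 249.1 CPM in WT and 284, 281 and 287 CPM in KO, which overlap.

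In Het the genes of lowest p with lower values included several of mitosis, and none passed. Cip2a stood at 178, 274 and 185 CPM in WT and 41.6, 60.3 and 84.1 CPM in Het (log2 fold change -1.73 ± 0.39 SE, adjusted p = 0.959, edgeR), and at 84.0, 105 and 132 CPM in KO. WT lay above all other animals. Racgap1, of cytokinesis, and Cenpp, of the centromere, had log2 fold changes of -2.16 and -1.05. The annotation of Cenpp overlaps matrix genes, among them Ogn and Omd, so its counts are uncertain. Of 13 G2/M genes tested, 5 (38.5%, beside 4.37% of all genes) had an unadjusted p under 0.05, all lower in Het (Kif20b, Bub1, Top2a, Mki67 and Kif4), and the median log2 fold change of the 13 was -1.05, beside 0.01 over all 2835 genes. In KO the median was -0.24, with 0 of 13 at an unadjusted p under 0.05. Mki67 stood at 534, 1225 and 831 CPM in WT and 229, 362 and 654 CPM in Het, so the groups overlapped. WT 2, the highest, had 17 vascular nuclei, and none of these genes passed the adjusted test. G2/M genes vary together, so the 5 are not separate results. The cycling share of vascular nuclei differed between Het and WT by -8.91 points (exact permutation p = 0.5, n = 3), and by 0.0136 points without WT 2. Outside mitosis, Zkscan3 was lower in all 3 Het than in all 3 WT animals (log2 fold change -0.97), and Fhit, Htt, Trpc6, Ddx3x and Flrt2 higher (1.501, 1.16, 1.59, 1.17 and 2.65). With no filter on low counts edgeR called Fhit and Flrt2. Trpc6 turned direction without the upper limits on UMIs and genes (log2 fold change -0.15). Ddx3x, like Tmem164 and Gpc3, is on chromosome X, and the labels give no sex. The Y-linked genes Kdm5d, Ddx3y and Eif2s3y were at 0 in WT 3 and detected in the other 8 animals, and the part of sex in these values was not tested.

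Genes that differ in neurons of KO embryos, known from earlier results on these samples, were looked up in the vessels. Of 10, 5 could be tested and none was called. Abcg2 stood at 388, 146 and 338 CPM in WT, 219, 251 and 252 CPM in Het and 205, 384 and 283 CPM in KO (log2 fold change in KO -0.05 ± 0.35 SE). Slc9a9, Rnf220, Adamts6 and Abtb2 had log2 fold changes in KO of 0.01, -0.42, 0.11 and 0.52, each with an SE of 0.31 to 0.60. Errors of this size leave room for a change in either direction, and without the upper limits on UMIs and genes all 4 turned direction (-0.49, 0.11, -0.23 and -0.11). Nr6a1os, Tead3, Nrg2, Unc5c and Grm5 were too low to test, as were Myt1l, Myt1 and St18.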

How the data were processed

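Per the labels and the study's methods, the authors mapped reads to mm10 and counted them per gene and nucleus with ScaleRna, and called nuclei with its CellFinder. The deposited values are estimated counts of UMIs per gene and nucleus made by the authors with ScaleRna, which are expected counts in that some are fractions. The sources used here name neither the origin of the fractions nor strand use nor annotation release, so overlapping genes are uncertain. Groups came from the sample titles.

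Members were found by the stated rule in all 18 libraries, with no doublet removal and no limit on the ratio of log genes to log UMIs (both tried as alternatives). The members and the gene lists were chosen with earlier results of these data known. Nuclei were clustered with scanpy 1.11.5 (2000 variable genes, 20 components, 15 neighbours, Leiden resolution 0.5, igraph 0.11.9, seed 0). Myt1l, Xist, Tsix, Ddx3y, Uty, Kdm5d and Eif2s3y were left out of the clustering, and the other genes on the sex chromosomes stayed in. A cluster was named where a vascular class had the highest fraction of its markers detected among all marker lists, those of other cells included. A marker counted as detected at 10 CPM or more and at least 1.5 times the other nuclei. The class also needed at least 3 detected markers, and more markers among the 10 leading genes than any other list. This rule was set after seeing the data. These names were made anew and may differ from the study's. Counts were summed per animal, rounded and tested with edgeR 4.0.16 (filterByExpr, TMM, quasi-likelihood, all 9 animals, genotype as in the study). Genes were called at an adjusted p (Benjamini-Hochberg) under 0.05 with a log2 fold change beyond 0.2. DESeq2 1.42.0 was the alternative. Shares were compared with exact permutation tests over all regroupings of the animals. Intervals and limits cover counting error only.

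Named genes were the rule's genes, the 2 to 6 highest members of each list, the leading vascular genes, the 5 genes of lowest p per direction with at least 50 CPM (none being called), and the Myt1 family and KO neuron genes. The other list genes named (Slco1a4, Slco1c1, Wnt7a, Wnt7b, Lama1, Lama2, Col4a5, Col4a6, Acta2, Tagln, Myh11, Tubb3, Snap25, Kif20b and Bub1) and leading genes of single classes were chosen after their values were seen. A gene that the rule names in Het is not reported here. Gene positions and overlaps come from GENCODE vM21, and promoters from RefSeq GRCm38.p6. The edgeR step was tested on simulated data of 2576 genes, all with the same set spread. The study's methods state that the E14 samples were drawn from several litters. Labels do not say which animals shared a litter, and p-values measure the spread between these animals.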

Additional observations from a re-analysis of the deposited data

How the results depend on the processing

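Of the shares, slopes and counts of calls under other settings than leaving out an animal, 147 kept their direction and their side of the threshold, 8 turned direction, 2 newly passed and 2 counts moved. The exact permutation p of 3 against 3 animals cannot go below 0.1, so no difference from WT could change side. Among shares and slopes only the slopes could. In run 1 alone the slopes per lost allele passed for vascular nuclei (0.133 points, exact permutation p = 0.0155) and mural-like nuclei (0.0668 points, exact permutation p = 0.0190), on 5 vascular and 1 mural-like nucleus in WT, and the endothelial-like difference between Het and WT was -0.000567 points. In run 2 alone the mural-like difference between KO and WT was -0.00263 points, the slope -0.00132 points, and the mural-like cycling difference between Het and WT 0.613 points. Thinned to 1500 UMIs, an alternative chosen after seeing the data, cycling in KO against WT was -10.1 points in vascular nuclei (slope -5.07) and -5.63 points in mural-like nuclei (slope -2.82). With no filter on low counts edgeR called 66 genes in KO and 19 in Het. Of the 15 higher in Het, 14 were highest in fibroblast-like nuclei and 3 in Het 1 among all 9 animals, KO included. Het 1 was not compared with the other Het animals alone, and these shares were not counted over all genes. The calls included Dpyd, Samd4, Flrt2 and Gpc3 in KO and Fhit and Flrt2 in Het.

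With each animal left out in turn, the vascular share ran from -0.00889 (without KO 1) to 0.175 points in KO against WT and from 0.0309 (without WT 2, exact permutation p = 0.2) to 0.0646 in Het, and its slope from -0.000257 (without KO 1) to 0.0848. The endothelial-like share ran from -0.00543 (without KO 1) to 0.0305 points in KO and from -0.00237 (without WT 2) to 0.00870 in Het, with a slope of -0.00213 (without KO 1) to 0.0145 (without KO 2, exact permutation p = 0.0411, not adjusted). The mural-like share ran from -0.00406 (without KO 1) to 0.0378 points in KO and from 0.0160 (without Het 3) to 0.0397 in Het. The fibroblast-like share ran from 0 (without KO 1) to 0.0980 points in KO and from 0 (without Het 1) to 0.0121 in Het. Cycling of vascular nuclei ran from -5.42 (without KO 3) to 12.9 points in KO, from -17.5 to 0.0136 (without WT 2) in Het, and its slope from -3.19 (without KO 3) to 6.55. In mural-like nuclei it ran from -5.47 (without KO 3) to 8.91 points in KO, with a slope of -3.21 (without KO 3) to 3.56.

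The replicate block called 0 genes in KO and 0 in Het, with 142 and 138 at an unadjusted p under 0.05. Same-numbered animals of different genotypes correlated at -0.04 to 0.383 in their deviations from the genotype means, and other pairs at -0.224 to 0.228. In mural-like nuclei the ranges were -0.013 to 0.12 and -0.119 to 0.032. The ranges overlapped, which cannot show that the numbers do not pair the animals. In mural-like nuclei the highest correlations, up to 0.12, were between same-numbered animals. Whether the numbers follow litters was not tested, and the main tests did not pair the animals. Restricted after seeing the data to mural-like nuclei, edgeR called 0 of 1441 genes in KO (58 at an unadjusted p under 0.05) and in Het, with a lowest adjusted p in Het of 0.120, or 0.0595 with the replicate block. Restricted to endothelial-like and mural-like nuclei, it called 0 of 1909.

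Of the named genes, these turned direction, none of them called. Without upper limits the log2 fold changes were 0.12 (Abcg2), -0.11 (Abtb2), -0.23 (Adamts6), -0.49 (Slc9a9) and 0.11 (Rnf220) in KO, and -0.15 (Trpc6), -0.0715 (Abtb2), -0.0470 (Adamts6) and 0.46 (Rnf220) in Het. Abcg2 in KO was 0.0729 in endothelial-like and mural-like nuclei, 0.15 there without KO 1, 0.42 in mural-like nuclei with or without the replicate block, and 0.0348 with no filter. Adamts6 in KO was -0.23 in endothelial-like and mural-like nuclei without KO 1. Slc9a9 in KO was -0.32 in run 2 and -0.0041 with the replicate block. Leaving out animals gave -0.35 to 0.20 (Abcg2), -0.11 to 0.32 (Adamts6), -0.16 to 0.25 (Slc9a9) and -0.76 to 0.56 (Rnf220) in KO, and -0.68 to 0.64 (Rnf220) in Het. The cause of these changes was not tested. Run 1 alone was not run for genes and cycling, since WT 2 had 0 vascular nuclei there. Depth limits all of this: an animal gave 17 to 68 vascular nuclei.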

Other observations

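Genes of arterial, venous and sprouting endothelium were found among the 52 endothelial-like nuclei, which were too few to divide further. Of 9 arterial genes 7 were highest in endothelial-like nuclei, with Sox17, a transcription factor, at 214 CPM and Sema3g, a semaphorin, at 120 CPM, both at 0 in mural-like nuclei, while Unc5b, a netrin receptor, was even between endothelial-like and mural-like nuclei (309 and 318 CPM). Of 8 venous genes 6 were highest in endothelial-like nuclei, with Vwf, von Willebrand factor, at 271 CPM and 4.07 CPM in mural-like nuclei. Nr2f2, a transcription factor of venous identity, ran the other way, at 94.4 CPM in endothelial-like and 334 CPM in mural-like nuclei. Of 9 tip cell genes 8 were highest in endothelial-like nuclei, among them Apln, the ligand apelin, at 239 CPM and 0 in mural-like nuclei.

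Within mural-like nuclei, an analysis added after the data were seen, no gene passed (edgeR), and 2 of the genes of lowest p had also been among those of lowest p over all vascular nuclei in KO. Tmem164 stood at 123, 84.0 and 22.7 CPM in WT, 197, 246 and 230 CPM in Het and 238, 414 and 186 CPM in KO (log2 fold change in KO 1.83 ± 0.50 SE, adjusted p = 0.435, edgeR), and Dlst had a log2 fold change in KO of -1.38. Trpc6, a cation channel, stood at 73.7, 140 and 227 CPM in WT and 809, 311 and 327 CPM in Het (log2 fold change 1.60 ± 0.42 SE, adjusted p = 0.120, edgeR), with 222, 75.2 and 237 CPM in KO. These are the same animals as above and no independent support.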
